A study of Mus musculus with 7 samples.

Results

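Cd274 (PD-L1), Pdcd1lg2 (PD-L2), Pdcd1 (PD-1), Cd80, Cd86, Cd28 and Icos were followed across single-cell libraries of an implanted mouse glioma. The genes were taken by symbol from the deposited gene list and make up 7 of its 32285 genes. Tumours were grown from NSCG-mCherry, a single glioma line labelled EGFRvIII+ and Arf/Ink4a-/-, in wild-type C57BL/6 mice of 7 to 10 weeks, and whole tumours were dissociated about 14 days after implantation. The 7 libraries each pooled at least 2 mice, so a library is the replicate. UT (1 library) was untreated. IgG (2 libraries) received 10 mg/kg IgG2b isotype control, BP (2 libraries) 5 mg/kg B20, an antibody to VEGF, with 10 mg/kg anti-PD-L1, and BPI (1 library) the BP antibodies with 10 mg/kg IPI-145, an oral inhibitor of PI3K delta and gamma. CD40 (1 library) received 2 doses of 100 µg of an agonist antibody to CD40, and a dendritic cell vaccine may or may not have accompanied them, which the labels do not settle. Antibodies were given every 3 days in IgG, BP and BPI, for 3 rounds, and every 5 days in CD40. All tumours came from the same line, with no tumour-free brain as a comparison.

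PD-1 is an inhibitory receptor of activated T cells, and binding of either of its ligands, PD-L1 or PD-L2, brings a phosphatase to the receptor tail that dampens signalling from the T cell receptor and CD28. CD28 is the costimulatory receptor for CD80 and CD86 on antigen-presenting cells, and ICOS is a CD28 relative that T cells raise after activation. PD-L1 is widely inducible, above all by interferon gamma, while PD-L2 is known mainly from macrophages and dendritic cells. CD80 can also bind PD-L1 on the same cell. The values here are transcripts, so antibody occupancy and surface protein were not measured.

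The genes lie on 3 mouse chromosomes (GRCm38, GENCODE annotation). Cd28 (ENSMUSG00000026012, chr1:60716800-60773359, plus strand) and Icos (ENSMUSG00000026009, chr1:60977927-61000320, plus strand) flank Ctla4, at distances of 113640 bases and 62094 bases. Pdcd1 (ENSMUSG00000026285, chr1:94038305-94052553, minus strand) is far from them on the same chromosome. Cd86 (ENSMUSG00000022901, chr16:36603869-36666081, minus strand) and Cd80 (ENSMUSG00000075122, chr16:38455561-38496335, plus strand) share chromosome 16, with 1789479 bases between them. Cd274 (ENSMUSG00000016496, chr19:29367455-29388095, plus strand) and Pdcd1lg2 (ENSMUSG00000016498, chr19:29410919-29471161, plus strand) are neighbours with 22823 bases between them. The RefSeq promoter table for GRCm38.p6 held 4 of the 7 genes. The 250 bases before the start of the Cd274 and Pdcd1lg2 transcripts are shown because these adjacent genes had unlike patterns across libraries (Cd274 at chr19:29367188-29367437 and Pdcd1lg2 at chr19:29410669-29410918, plus strand, 5′ to 3′, with GAAA on either strand in capitals).
Cd274: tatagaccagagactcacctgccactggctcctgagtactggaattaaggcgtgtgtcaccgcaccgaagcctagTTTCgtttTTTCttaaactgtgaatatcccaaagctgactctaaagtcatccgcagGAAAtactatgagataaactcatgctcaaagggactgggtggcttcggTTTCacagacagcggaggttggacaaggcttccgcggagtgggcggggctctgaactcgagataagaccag
Pdcd1lg2: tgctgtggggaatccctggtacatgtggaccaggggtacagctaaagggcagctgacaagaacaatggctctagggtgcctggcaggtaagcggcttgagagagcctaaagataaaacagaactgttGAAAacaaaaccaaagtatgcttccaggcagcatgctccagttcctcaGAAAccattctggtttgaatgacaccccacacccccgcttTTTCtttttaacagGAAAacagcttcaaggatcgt
GAAA, a short core shared by interferon-responsive elements, matched 4 times in each, and 86.4% of the 32851 promoters in the table hold it. Longer motifs were searched on both strands as GAAANNGAAA, TTCNNNGAA and GGGANNTCC, which 2.98%, 7.02% and 3.59% of promoters hold. None of these 3 was found in the windows of Cd274, Pdcd1lg2, Cd80 or Pdcd1. The Cd80 window (chr16:38458683-38458932) lies inside the GENCODE span of the gene given above, so the bases before that span were not searched.

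After filtering, 48588 cells remained, 5373 to 9650 a library, from 68997476 to 186793886 deposited UMIs (unique molecular identifiers, the counted transcripts). UT shared 0 to 3 cell barcodes with each other library, and the other libraries shared 10 to 26 with each other. The labels give 1 chemistry for all, and in every UT comparison the absence of treatment and whatever sets the barcodes of UT apart cannot be told apart. Cells were clustered without the 7 genes and classes were called from marker lists. The tumour-like class held 31659 cells, monocyte/macrophage-like 3349, T-like 2624, microglia-like 2304, NK-like 1119 and dendritic-like 270, and 5638 cells were left unnamed. The IgG libraries held 39 and 58 T-like cells and 70 and 44 monocyte/macrophage-like cells, against 1300 and 1763 in BP replicate 1. That library stood apart. Most of its macrophages lay in clusters led by Ccl24, Arg1, Chil3, Ccl8 or Il1rn that held almost no cell of any other library, including 594 of the 596 cells of the Ccl24/Arg1/Mrc1-led cluster. UT macrophages lay mainly in Plac8/Ms4a4c-led and Ly6i/Ccl7-led clusters, BPI macrophages in a Cxcl2/Il1b/Cxcl9-led cluster, and those of IgG, BP replicate 2 and CD40 mainly in a Cxcl2/Lyz2/Gpnmb-led cluster. Tumour-like cells of the 2 IgG libraries lay mostly in different clusters, with 2024 and 13 cells in a Hist2h2ac/Gdf15-led one and 11 and 2142 in a Mdga2/Cda-led one. The 2 BP libraries were apart as well (4314 and 3 cells in a Pde10a/Pde3a-led cluster). The part of this in any comparison with IgG was not tested. Levels below are UMIs of a gene per 1000000 UMIs of the summed cells of a class (CPM), and tests are edgeR's quasi-likelihood test on those sums with Benjamini-Hochberg adjustment over all genes of a class, called at an adjusted p of 0.05. Whether mice within a group were housed or treated together is not stated, so p-values measure the spread between these libraries.

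Tumour-like and monocyte/macrophage-like cells together held most Cd274 UMIs. Tumour-like cells were 65.2% of all cells and held 43.0% of the Cd274 UMIs, while monocyte/macrophage-like cells were 6.89% of cells and held 39.4%. BP replicate 1 gave 18328 of these 28025 UMIs, and the order of both classes differed between libraries. Macrophages held the larger share in UT (44.2% against 42.5%) and BPI (52.3% against 27.1%), and tumour-like cells in the other 5, up to 83.6% against 6.58% in IgG replicate 1. Among the smaller classes, neutrophil-like cells had 1928 CPM in BP replicate 1 (27 cells), 264 in BP replicate 2 (11 cells) and 1212 in BPI (14 cells), with 1 to 5 cells in the other libraries. The 42 mast or basophil-like cells of BP replicate 1 had 1082 CPM. Migratory dendritic-like cells, the Ccr7-expressing dendritic cells that carry antigen to lymph nodes, had 850 CPM over 102 cells, none of them from IgG or CD40. Within libraries they had 709 CPM against 259 in the other dendritic-like cells (types 1 and 2) in UT, 947 against 118 in BP replicate 1 and 778 against 265 in BPI.

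In monocyte/macrophage-like cells Cd274 was at 54.0 and 44.0 CPM in the IgG libraries and at 49.1 CPM in CD40. It was at 424 and 195 CPM in the BP libraries, 396 CPM in BPI and 365 CPM in UT. The libraries thus split into a low trio and a high quartet with no overlap, and the untreated tumour was in the high one. This grouping was read from the Cd274 values themselves, and the share of all genes that split the libraries alike was not counted. BPI and UT exceeded IgG by 3.52 (SE 0.56, adjusted p = 0.0369) and 3.16 (SE 0.56, adjusted p = 0.0495) on the log2 scale with edgeR. The BP difference was 2.66 (SE 0.50), with an unadjusted p of 2.90e-04 and an adjusted p of 0.236 with edgeR, and was 3.00 without BP replicate 2. CD40 differed from IgG by -0.01 (95% interval -1.15 to 1.13), and BPI from BP by 0.86 (SE 0.53, adjusted p = 0.995, edgeR). Of the 4 members tested in this class, 1 was called in BPI and 1 in UT, both Cd274. The background share of genes called was 0.230% and 0.341% in those comparisons and 0% in BP against IgG, where no gene of 10855 passed with edgeR (589 at an unadjusted p under 0.05, 49 with DESeq2, and Cd274 passed there at 5.82e-04). The counts of genes called moved with single libraries. A fit without an IgG or BP library takes its estimate of the spread from the other replicated group only. Without BP replicate 2 the genes called were 963 in BPI, 927 in UT and 734 in BP, in place of 25, 39 and 0. Without IgG replicate 1 they were 327, 271 and 175, without IgG replicate 2 37, 71 and 41, and without BP replicate 1 they were 0, 167 and 0. The BPI call was lost without IgG replicate 2 (3.35, adjusted p = 0.164) or without BP replicate 1 (3.39, adjusted p = 0.148), and the UT call without IgG replicate 2 (2.95, adjusted p = 0.220), all with edgeR.

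Counted per cell after thinning each cell to 1000 UMIs, 33.2% and 15.9% of BP macrophages held a Cd274 UMI, against 4.29% and 9.09% in IgG, 29.5% in BPI, 29.1% in UT and 5.93% in CD40. The BP mean was 24.6% ± 12.2 and the IgG mean 6.69% ± 3.40 (SD, n = 2 each), a difference of 17.9 percentage points with p = 0.33 in a two-sided exact permutation test, the smallest that 2 libraries against 2 can give. The 8 microglia markers moved with the same libraries. Their summed level in this class was 1352 and 2594 CPM in IgG, 1917 in CD40 and 973 in BP replicate 2, against 686 in UT, 633 in BPI and 418 in BP replicate 1, and Sall1 was at 0 in IgG and in BP replicate 2. Their part in the difference was not tested. The split was then read within single clusters. In the Cxcl2/Lyz2/Gpnmb-led cluster Cd274 was at 6.33 and 41.4 CPM in IgG, 104 in BP replicate 2, 121 in BPI, 52.0 in UT and 26.0 in CD40. In the Adgre4-led cluster, the one shared most evenly by the libraries (9 to 86 cells), it was at 173 and 67.8 CPM in IgG (7 and 6 UMIs), 408 and 145 in BP, 314 in BPI, 315 in UT and 187 in CD40. There, IgG replicate 1 and CD40 lay above BP replicate 2, so the low trio and the high quartet overlapped in this cluster.

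**Figure D1:**
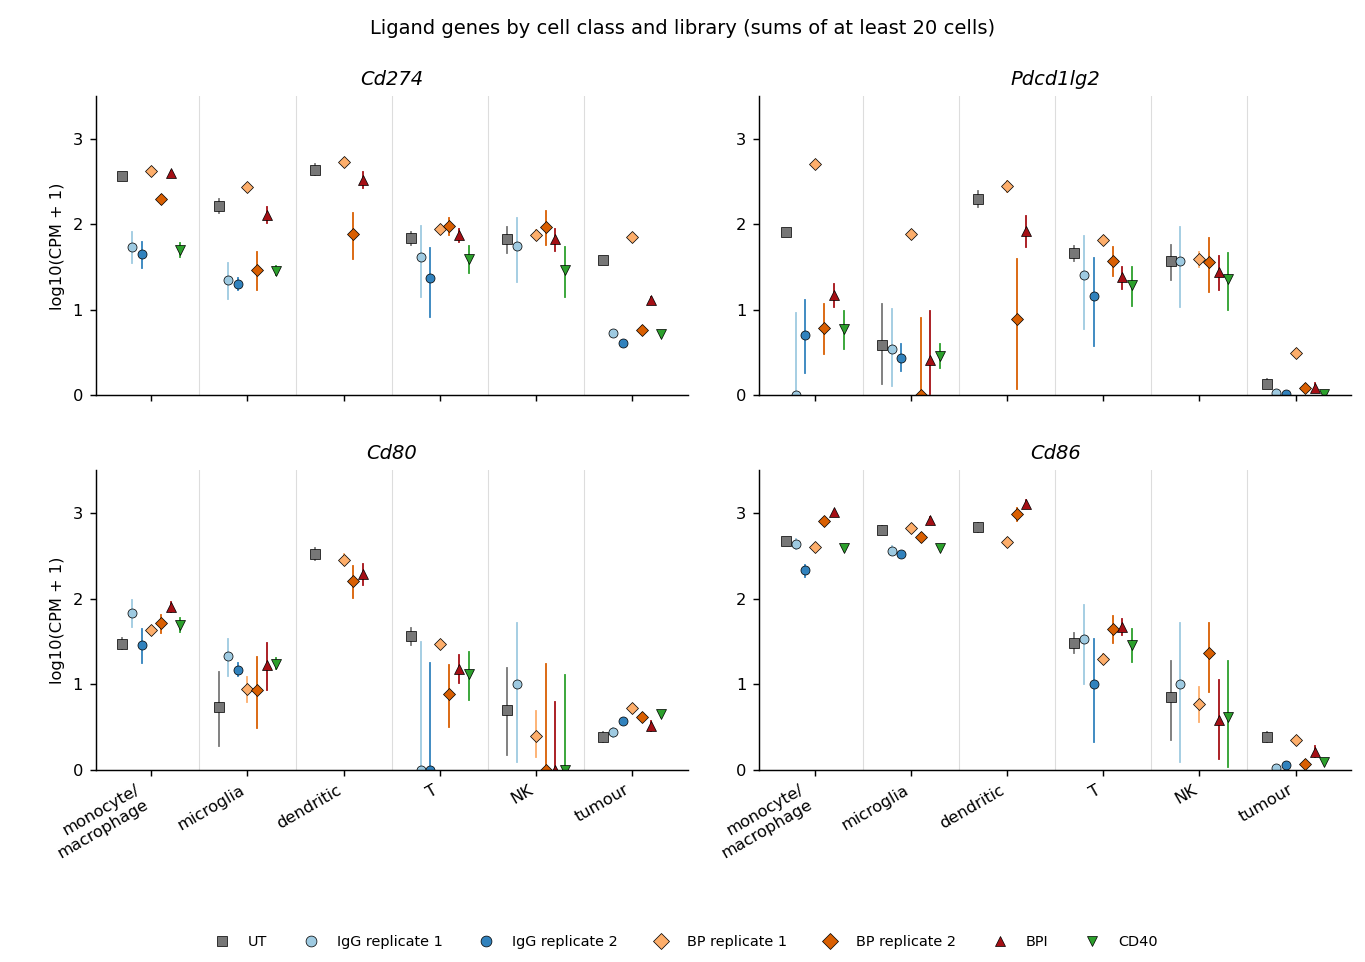
Levels of the 4 ligand genes as log10(CPM + 1) by cell class, with 1 point for each library with at least 20 such cells and bars for the 95% exact Poisson interval, which covers counting error only. Cd274 in monocyte/macrophage-like cells lies at 44.0 to 54.0 CPM in IgG and CD40 and at 195 to 424 CPM in the other libraries, and Pdcd1lg2 is highest in BP replicate 1.

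In microglia-like and tumour-like cells Cd274 was lowest in IgG and CD40, with BP replicate 2 close to them, and edgeR did not call it. Microglia-like cells had 21.5 and 19.3 CPM in IgG, 27.8 in CD40 and 28.6 in BP replicate 2. BP replicate 1 had 275, UT 165 and BPI 128. The C1qc/Cd83/Cd74-led cluster (269 CPM over all libraries) held 212 of 215 BP replicate 1 cells and 30 of 53 UT cells, but 0 and 3 of IgG. The Ccl12/Ccl4/Ccl3-led cluster (162 CPM) held 80 of 188 BPI cells, but 5 and 1 of IgG. Another 94 BPI cells shared a P2ry12-led cluster with 81 and 66 IgG cells. The Spp1/Ccl3/Trem2-led cluster (33.8 CPM) held 177 IgG replicate 2 and 282 CD40 cells. Cluster and library were not told apart, and the part of clusters was not tested. BP exceeded IgG in microglia-like cells by 2.98 (SE 0.91, edgeR adjusted p = 0.929). No gene of 12152 was called in that class for BP against IgG (background share 0%, 585 genes at an unadjusted p under 0.05). With DESeq2 Cd274 passed (2.95, adjusted p = 0.0384) among 40 genes called. With edgeR it passed with no filter (adjusted p = 5.41e-10), and was 3.80 without BP replicate 2 and 0.52 without BP replicate 1. In all, edgeR called 725 genes without BP replicate 2, 54 without BP replicate 1, 317 with no filter and 9 with the replicate block. Tumour-like cells had 4.31 and 3.16 CPM in IgG, 4.26 in CD40, 4.85 in BP replicate 2 and 12.0 in BPI, with 36.9 in UT and 70.7 in BP replicate 1. Most tumour-like cells of BP replicate 1 (4314 of 4964) and of UT (1024 and 1493 of 2620) lay in clusters that held few cells of other libraries. IgG replicate 2 and CD40 shared clusters, and so did IgG replicate 1, BP replicate 2 and BPI, which allowed Cd274 to be read within them (a reading added after the data were seen). In the shared Gfap/Igfbp5-led cluster BP replicate 1 had 104 CPM (405 cells) and UT 99.4 (28 cells), against 39.1 in IgG replicate 2 (193 cells) and 41.7 in CD40 (262 cells), and the counting intervals of the higher and the lower pair did not overlap. In the largest cluster shared by the other libraries BPI had 13 CPM (1564 cells), BP replicate 2 4.97 (1617 cells) and IgG replicate 1 4.35 (2024 cells), and the intervals of BP replicate 2 and IgG replicate 1 overlapped. The tumour difference between BP and IgG was 3.20 (SE 1.2, edgeR adjusted p = 1.0), or 0.48 without BP replicate 1, and none of 20357 genes was called (background share 0%, 382 at an unadjusted p under 0.05). The monocyte/macrophage marker list in the tumour class summed to 306 CPM in BP replicate 1 and to 98.4 to 132 CPM elsewhere. Its part in the tumour level was not tested. RNA from the cell-free droplets could account for at most 5.37% of the tumour Cd274 level in any library, by the estimate used here. T-like and NK-like cells carried Cd274 as well, at 22.5 to 94.1 CPM in T-like cells and 69.6 CPM over all NK-like cells.

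Pdcd1lg2 UMIs came mainly from macrophages of 1 library. Monocyte/macrophage-like cells held 82.3% of its UMIs over all libraries, and 8880 of their 9436 UMIs were in BP replicate 1. Macrophages held 497 UMIs in UT, 38 in BPI and 11 in CD40. All barcodes there, also those not kept as cells, held 888, 168 and 84. In IgG macrophages held 3 UMIs, and all barcodes 18 and 27. In this class Pdcd1lg2 reached 515 CPM in BP replicate 1, 81.3 CPM in UT, 13.8 in BPI, 5.17 in BP replicate 2 and 4.95 in CD40, with 0 and 4.13 CPM in IgG. The 2 BP libraries therefore differed more from each other than either UT or BPI did from IgG, and no comparison with IgG called the gene (edgeR adjusted p = 0.346 for BP, 0.772 for BPI and 0.337 for UT). Set against the 3 UMIs of both IgG libraries, the ratio was 31.7 in UT (95% counting interval 10.8 to 154) and 5.40 in BPI (1.71 to 27.3). The BP ratio of 187 (63.9 to 905) was carried by replicate 1. These intervals cover counting error only.

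The level of Pdcd1lg2 differed between macrophage clusters. It was at 637 CPM in the BP replicate 1 cells of the Ccl24/Arg1/Mrc1-led cluster, where it was among the 10 leading genes by fold, and at 315 to 638 CPM in the other clusters dominated by that library. The UT-led Plac8/Ms4a4c and Ly6i/Ccl7 clusters had 74.1 and 91.2 CPM in UT cells. In those clusters, which hold few cells of other libraries, cluster and library cannot be told apart. The Adgre4-led cluster was shared by all 7 libraries, with 39.5 CPM in BP replicate 1 (22 UMIs), 34.0 in CD40 (8 UMIs), 11.3 in IgG replicate 2, 8.29 in UT and 5.15 in BPI (1 UMI each), and no UMI in IgG replicate 1 and BP replicate 2. Migratory dendritic-like cells had 325 CPM in UT, 418 in BP replicate 1 and 215 in BPI (8 UMIs). T-like cells had 13.5 to 64.6 CPM, and tumour-like cells 0.036 to 2.18 CPM.

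Cd80 and Cd86, the CD28 ligands, did not share the split of Cd274. Cd86 was high in macrophages of every library, at 472 CPM in UT, 434 and 212 in IgG, 400 and 812 in BP, 1020 in BPI and 389 in CD40. The highest value was in BPI and the lowest in IgG replicate 2, and the groups overlapped. BPI exceeded IgG by 2.15 (SE 0.72, edgeR adjusted p = 0.315). Microglia-like cells were also a main source, at 335 to 821 CPM, with the highest again in BPI, and held 36.0% of Cd86 UMIs beside 52.9% in macrophages. Microglia-like cells held the larger share in IgG (54.1% and 88.1%) and CD40 (72.9%), and macrophages in the other libraries (67.7% to 73.1%). B-like cells had 279 CPM over 182 cells. In dendritic-like cells the level was 460 and 969 CPM in BP, 679 in UT and 1280 in BPI. Tumour-like cells had 0.525 CPM and T-like cells 24.6 CPM.

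Cd80 was low in macrophages, at 28.8 CPM in UT, 67.5 and 27.5 in IgG, 42.2 and 50.2 in BP, 79.7 in BPI and 48.2 in CD40. These ranges overlapped, and BPI against IgG gave 1.28 (SE 0.57, edgeR adjusted p = 0.532). The gene was highest in migratory dendritic-like cells, at 568 CPM, against 97.4 CPM in types 1 and 2. In UT, BP replicate 1 and BPI the migratory cells had 761, 498 and 456 CPM. Microglia-like cells had 13.8 CPM. Tumour-like cells had only 1.39 to 4.26 CPM but, through their number, held 38.0% of Cd80 UMIs, ahead of 31.0% in macrophages and 10.4% in dendritic-like cells. Tumour-like cells held more than macrophages in IgG, CD40 and BP replicate 2 (49.2% to 70.5%), and less in UT (16.4% against 35.7%), BP replicate 1 (27.3% against 41.6%) and BPI (24.7% against 51.5%).

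Pdcd1 was counted mainly in T-like and microglia-like cells, and which of them held more differed between libraries. Over all libraries T-like cells held 70.4% of its UMIs and microglia-like cells 24.8%. T-like cells held 75.8% to 93.9% in UT, BP and BPI, and microglia-like cells held 82.9% and 93.8% in IgG and 89.2% in CD40. In T-like cells Pdcd1 was at 425 CPM in UT, 175 and 101 in BP, 111 in BPI, 61.2 in CD40, and 32.8 and 9.02 in IgG (4 and 2 UMIs). The untreated library was highest, and every other library exceeded both IgG libraries. With edgeR, UT exceeded IgG by 4.48 (SE 0.62, adjusted p = 1.23e-07), BP by 2.74 (SE 0.60, adjusted p = 0.00921) and BPI by 2.71 (SE 0.66, adjusted p = 0.0214). With DESeq2 the BP and BPI differences did not pass (adjusted p = 0.0640 and 0.455), nor did BP with the replicate block in edgeR (adjusted p = 0.192). CD40 did not pass (1.67, SE 0.71, adjusted p = 1.0). BPI and BP differed by -0.03 (95% interval -0.96 to 0.90). Of the 7 members tested in T-like cells, 1 was called in BP and 1 in BPI, both Pdcd1, and 2 in UT, Pdcd1 and Cd80. Background shares of genes called in T-like cells were 2.42% for UT, 0.748% for BP, 0.597% for BPI, 0.108% for CD40 and 0.174% for BPI against BP. Without IgG replicate 2 the genes called went from 227 to 62 in UT, 69 to 9 in BP, 55 to 8 in BPI and 10 to 3 in CD40. Without BP replicate 2 they were 402, 237, 126 and 23, and without BP replicate 1 471, 65, 121 and 21. BPI against BP went from 16 to 3 without BP replicate 1, 214 without BP replicate 2 and 34 without either IgG library. The BP and BPI calls rested on the 97 T-like cells of IgG. Without IgG replicate 2 they fell to 1.95 (adjusted p = 0.657) and 1.92 (adjusted p = 0.781), and with UT counted as a control the BP difference was -0.49 (adjusted p = 1.0, all edgeR). At 1000 UMIs a cell, 28.3% of UT T-like cells held Pdcd1, against 12.6% and 7.02% in BP, 9.60% in BPI, 2.33% in CD40 and 2.56% and 0% in IgG, where 0 of 58 cells held a UMI at that depth (a limit of 5.17% by the floor of 3 counts) and 2 of 58 (3.45%) did unthinned. BP averaged 9.82% ± 3.96 and IgG 1.28% ± 1.81 (SD, n = 2 each; two-sided exact permutation p = 0.33, the smallest possible).

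In microglia-like cells Pdcd1 was lowest in the BP libraries. It was at 36.7 and 48.3 CPM in IgG, 58.2 in CD40, 61.8 in UT, 44.4 in BPI, and 6.09 and 21.0 in BP. Both BP libraries were below all others. BP against IgG was -2.01 (SE 0.58, unadjusted p = 0.0116, edgeR adjusted p = 0.929), so no call was made. It was -2.81 without BP replicate 2 and -1.05 without BP replicate 1, and it passed with no filter (edgeR adjusted p = 0.00147). Monocyte/macrophage-like cells had 1.07 CPM, NK-like cells 6.33 CPM and B-like cells 0. The level depended on the cluster. The Spp1/Ccl3/Trem2-led cluster, whose leading genes are those of activated microglia, had 75.6 CPM over 496 cells, with 188 CPM in UT, 72.1 in IgG replicate 2 and 74.7 in CD40. P2ry12-led clusters, with genes of resting microglia, had 14.1 to 31.5 CPM. The C1qc/Cd83/Cd74-led cluster, which held 212 of the 215 microglia-like cells of BP replicate 1, had 9.30 CPM. Of 513 microglia-like cells with Pdcd1, 8 (1.56%) held a UMI of a T marker, against 46 of 1791 (2.57%) without Pdcd1, of which 18 were from BP replicate 1. Within libraries the share was higher with Pdcd1 in IgG replicate 1, at 1 of 17 cells (5.88%) against 1 of 120 (0.833%). It was near that without Pdcd1 in UT, at 2 of 17 cells (11.8%) against 4 of 36 (11.1%), and in CD40 (1.46% against 1.39%). In the other 4 it was lower. The 7 T markers summed to 2.53 to 19.0 CPM per library, and their part in the Pdcd1 level was not tested. The Pdcd1-positive cells were deeper, with a median of 13074 UMIs against 6216.

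**Figure D2:**
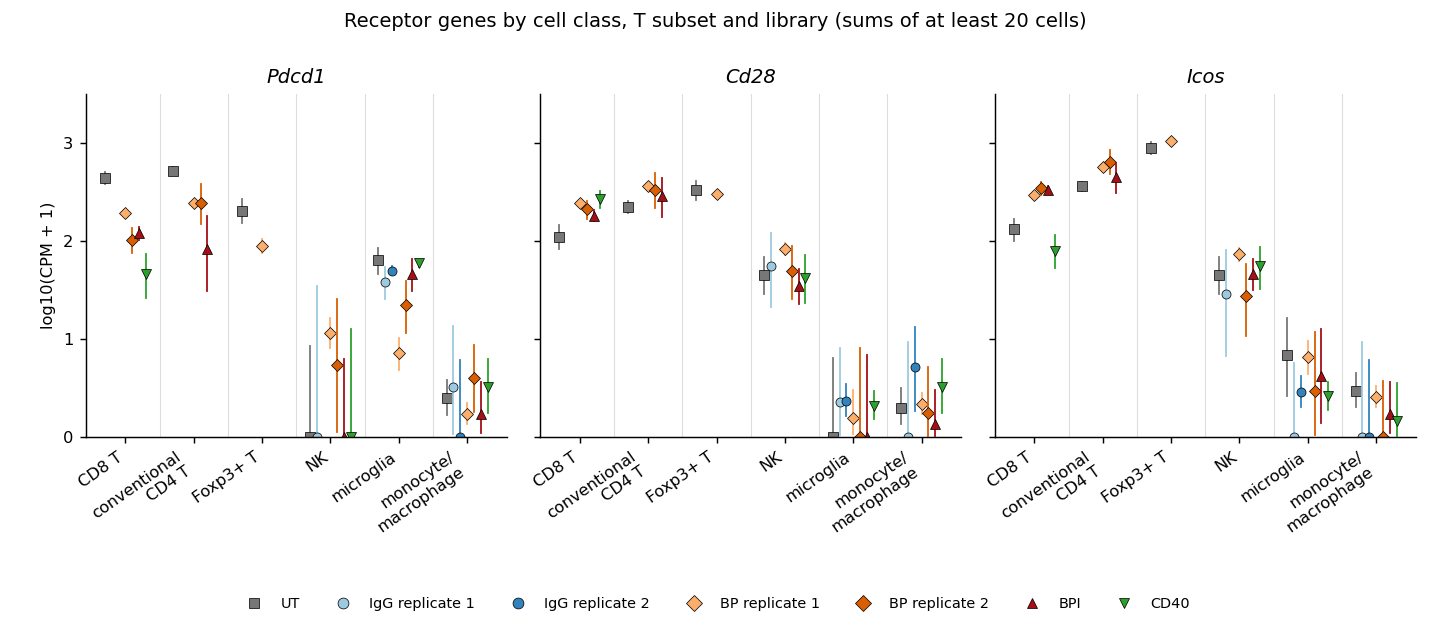
Levels of the 3 receptor genes as log10(CPM + 1) by T subset and cell class, with 1 point for each library with at least 20 such cells and bars for the 95% exact Poisson interval, which covers counting error only. In CD8 cells Pdcd1 runs from 44.3 CPM in CD40 to 435 CPM in UT, no IgG library has 20 cells in a T subset, and Pdcd1 is also plotted above 1 on this scale in microglia-like cells of 6 of the 7 libraries.

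Cd28 and Icos were counted mainly in T-like cells. T-like cells held 88.3% of Cd28 UMIs (60.0% to 91.3% by library) and 93.1% of Icos UMIs (75.7% to 97.6%), and NK-like cells 6.21% and 3.55%. Cd28 in T-like cells was at 214 CPM in UT, 172 and 293 in IgG, 281 and 210 in BP, 206 in BPI and 312 in CD40, and BP differed from IgG by -0.15 (SE 0.42). Icos was at 376 CPM in UT, 164 and 252 in IgG, 495 and 429 in BP, 351 in BPI and 263 in CD40. Each of these other libraries lay above both IgG libraries, but BP against IgG did not pass (0.95, SE 0.43, edgeR adjusted p = 0.539). In UT macrophages, the estimate of cell-free RNA came to 55.8%, 64.2% and 51.6% of the low Pdcd1, Cd28 and Icos levels.

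All 4 ligand transcripts were also counted in T-like cells. Cd80 had no UMI in the IgG T-like cells. Set against a floor of 3 counts over both IgG libraries (8.72 CPM), it was 4.02-fold higher in UT, 3.13-fold in BP, 1.63-fold in BPI and 1.37-fold in CD40. These folds leave out the counting error of the group above the floor. The counting interval of CD40 (9 UMIs, 5.47 to 22.7 CPM) reached below the floor. In BP, replicate 1 was at 28.8 CPM and replicate 2 at 6.72 (5 UMIs). The UT difference passed (edgeR adjusted p = 0.0267). Cd86 was at 24.6 CPM over all T-like cells. The 10 monocyte/macrophage markers summed to 806 to 2976 CPM in T-like cells. This sum may hold transcripts of the T cells themselves, and their part in it was not tested. Ly6c2, a gene of monocytes and of memory-type CD8 cells, was at 727 to 2450 CPM in thinned CD8 cells of UT, BP and BPI, split by Pdcd1. In the 1954 of 2624 T-like cells with no UMI of 15 phagocyte and dendritic markers, Cd274 was at 86.1 CPM (80.0 in all), Pdcd1lg2 at 45.0 (53.0), Cd80 at 20.6 (25.4) and Cd86 at 29.3 (24.6).

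**Figure D3:**
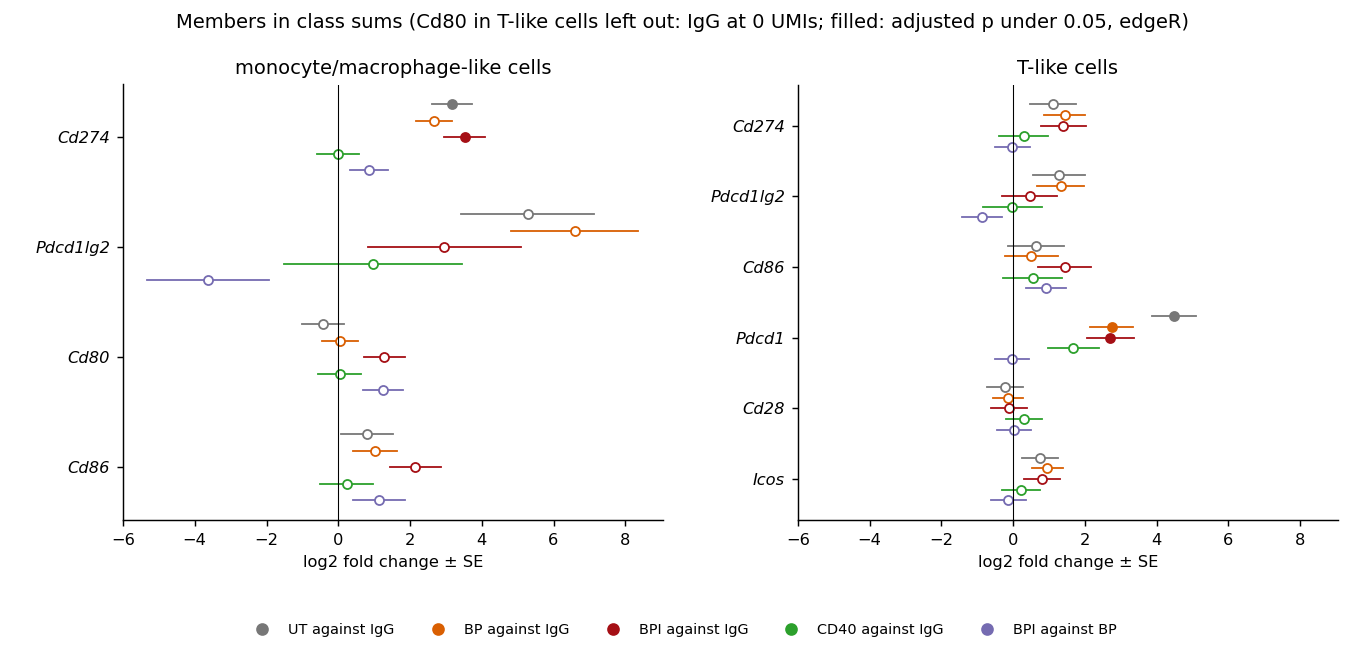
Log2 differences from IgG, and of BPI from BP, for the members tested in monocyte/macrophage-like and T-like cells, with bars of 1 SE from edgeR and filled points for calls. Cd274 in macrophages and Pdcd1 in T-like cells are displaced in UT, BP and BPI (2.66 to 4.48), and CD40 and BPI against BP lie nearer 0. Cd80 in T-like cells is left out because IgG had no UMI, and Pdcd1lg2 in macrophages rests on 3 IgG UMIs, so its fitted size is no bound.

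T-like cells were divided by Foxp3, Cd8a, Cd8b1 and Cd4 UMIs into 1087 CD8, 519 conventional CD4 and 300 Foxp3+ cells, the regulatory T cell transcription factor marking the last. A further 671 cells held none of these UMIs and 47 held both Cd4 and Cd8. Tests compared subsets within UT, BP replicate 1, BPI and CD40, the 4 libraries with at least 10 cells in each subset. Icos increased from CD8 to conventional CD4 to Foxp3+ cells. It was at 130, 358 and 883 CPM in UT, 291, 558 and 1030 in BP replicate 1, 326, 445 and 690 in BPI, and 77.5, 395 and 990 in CD40, the same order in each of the 4. CD8 cells were below conventional CD4 cells by an Icos log2 difference of -1.05 (SE 0.27, edgeR adjusted p = 0.0193) and Foxp3+ cells above them by 0.98 (SE 0.27, edgeR adjusted p = 0.0388).

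Cd28 was also lower in CD8 than in conventional CD4 cells, at 109 against 220 CPM in UT, 243 against 361 in BP replicate 1, 179 against 283 in BPI and 263 against 608 in CD40 (log2 difference -0.74, SE 0.22, edgeR adjusted p = 0.0470). Foxp3+ and conventional CD4 cells differed in Cd28 by -0.18 (SE 0.23, adjusted p = 0.904). Pdcd1 did not separate CD8 from conventional CD4 cells (-0.14, 95% interval -0.62 to 0.35). It was at 435 and 510 CPM in UT, 191 and 242 in BP replicate 1, 118 and 80.9 in BPI and 44.3 and 30.4 in CD40. Foxp3+ cells had 201, 87.4, 147 and 59.1 CPM in these libraries, below conventional CD4 cells in UT and BP replicate 1 and above them in BPI (13 UMIs) and CD40 (4 UMIs). The fitted difference was -1.09 (SE 0.29, edgeR adjusted p = 0.0313).

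Among the ligand genes in T cells, Cd86 was at 42.6 CPM in CD8 against 21.8 in conventional CD4 cells of UT, 27.9 against 7.96 in BP replicate 1, 52.1 against 13.5 in BPI and 30.4 in both in CD40. The fitted difference was 1.46 (SE 0.31, edgeR adjusted p = 0.00463). Pdcd1lg2 was lower in CD8 cells of UT (29.8 against 40.2 CPM), BP replicate 1 (40.7 against 105) and BPI (23.7 against 40.4) but not of CD40 (13.8 against 10.1), with a difference of -0.97 (SE 0.27, edgeR adjusted p = 0.0320). Cd80 was higher in Foxp3+ than in conventional CD4 cells of BP replicate 1 (62.5 against 12.1 CPM), BPI (90.4 against 27.0) and CD40 (29.5 against 10.1) but not of UT (35.5 against 40.2), with a difference of 1.51 (SE 0.41, edgeR adjusted p = 0.0378). In all, 4 of 7 members differed between CD8 and conventional CD4 cells and 3 of 7 between Foxp3+ and conventional CD4 cells, against backgrounds of 6.05% and 4.49% of 7355 genes. With DESeq2 2 of the 4 and 0 of the 3 passed. All 7 calls were lost without BP replicate 1. Without cells that held phagocyte-marker UMIs, 1 of the 3 Foxp3+ calls was left.

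Cells with more than 1 ligand gene were then counted, at 1000 UMIs a cell. Among 102 migratory dendritic-like cells, 31 held 2 of the 4 ligand genes, 19 held 3 and 3 held all 4. Among 3349 macrophages these numbers were 609, 117 and 4, among 168 dendritic-like cells of types 1 and 2 they were 25, 4 and 1, and among 2304 microglia-like cells 67, 1 and 0. Pairs were compared with the number expected if the genes were independent within each library, as a description. In macrophages Cd274 and Pdcd1lg2 were together in 222 cells where 205 were expected, 204 of them in BP replicate 1, and 18 against 12.2 in the other libraries. Cd274 with Cd86 gave 400 against 347, above expectation in 7 of 7 libraries, and 866 against 783 at 2000 UMIs, above it in 5 of 7. Cd80 with Cd86 gave 98 against 67.9, and Pdcd1lg2 with Cd80 only 15 against 25.1, but 75 against 76.7 at 2000 UMIs. In all dendritic-like cells Cd274 and Pdcd1lg2 met in 27 against 16.7 expected, above expectation in 3 of 3 libraries. Within migratory cells the numbers were 19 and 15.3, and within types 1 and 2 they were 7 and 2.67. In CD8 cells Pdcd1 and Icos were together in 42 cells against 30.8 expected, of which 14 against 13.4 were outside BP replicate 1, and Cd28 and Icos in 57 against 52.0. Foxp3+ cells had 7 against 8.89 for Pdcd1 with Icos.

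**Figure D4:**
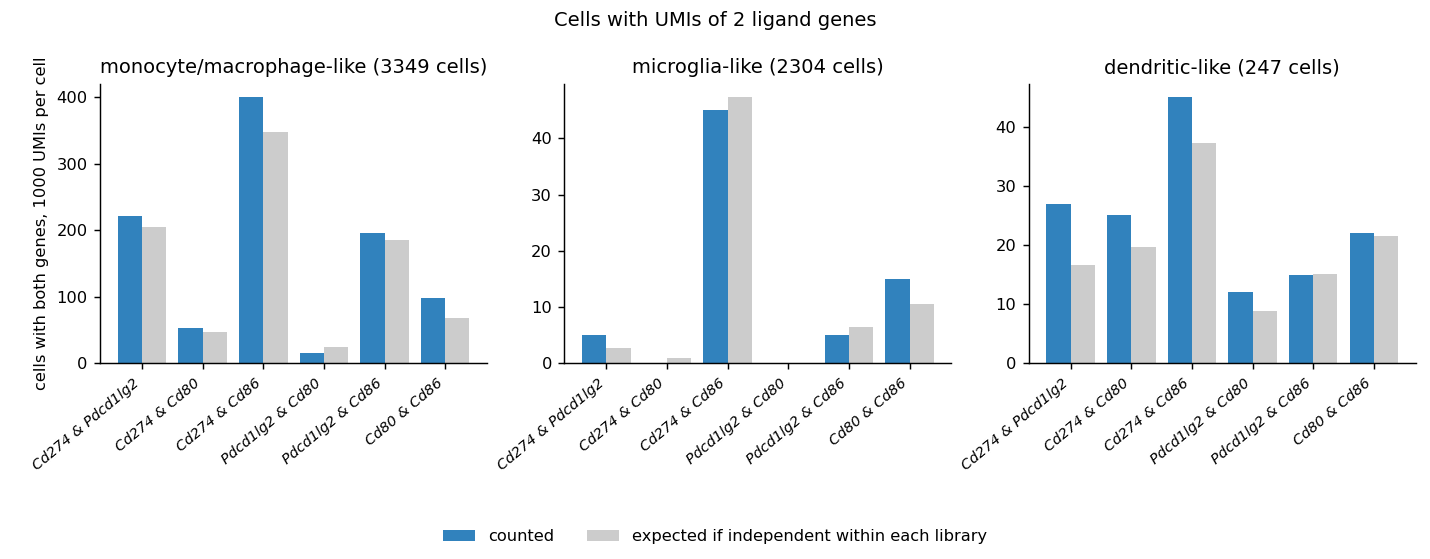
Cells with both genes of a pair (counted) beside the number expected if the genes were independent within each library, for pairs of ligand genes in monocyte/macrophage-like, microglia-like and dendritic-like cells of libraries with at least 20 cells, after thinning to 1000 UMIs. The vertical axes differ between the classes. The counts lie above the expectation for Cd274 with Cd86 in macrophages (400 and 347) and below it for Pdcd1lg2 with Cd80 (15 and 25.1).

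The test of Cd274-positive against Cd274-negative macrophages, split at 1 UMI after thinning, used UT, both BP libraries and BPI with library as a block. None of the other 3 ligand genes passed. Cd86 differed by 0.29 (SE 0.12, edgeR adjusted p = 0.207), Cd80 by 0.30 (SE 0.27) and Pdcd1lg2 by 0.22 (SE 0.18), against 3.08% of 5289 genes called (114 higher and 49 lower). These 163 calls became 16 without BP replicate 1, 83 without BP replicate 2, 55 without BPI, 31 with DESeq2 and 637 at 2000 UMIs. At 2000 UMIs Cd86 passed (0.40, adjusted p = 0.0124). Higher genes were led by Gnb4 (1.15, edgeR adjusted p = 0.00953), Sectm1a (1.07), Ifi205 (1.01), an interferon-inducible gene, F830016B08Rik (1.01) and Nos2 (0.94, edgeR adjusted p = 0.00228), the inducible nitric oxide synthase. Nlrc5, the activator of MHC class I genes, was higher by 0.56 (SE 0.16, edgeR adjusted p = 0.0194), and was not called without BP replicate 1, BP replicate 2 or BPI (edgeR adjusted p = 0.218, 0.0794 and 0.0746). Lower genes were led by Cx3cr1 (-1.74, edgeR adjusted p = 2.88e-05), Ppfia4 (-1.53), Spp1 (-1.44, edgeR adjusted p = 4.34e-20), Cebpzos (-1.38) and Evi5 (-1.26). Cx3cr1 is on the microglia list, whose 8 genes summed to 222 to 400 CPM in positive and 423 to 921 CPM in negative cells, lower in the positive cells of each of the 4 libraries. Its part in these differences was not tested.

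In dendritic-like cells 9 of 713 genes were called (1.26%), 8 of them named here at edgeR adjusted p-values of 0.0459 or 0.0487. Leaving out UT, BP replicate 1 or BPI gave 2, 15 or 76 calls, and DESeq2 gave 3. Cd274 was held at 1000 UMIs by 60 of 102 migratory cells and 28 of 168 of types 1 and 2, so positive and negative cells differed in subset, whose part in the calls was not tested. Ccr7 (1.25), the receptor of migratory dendritic cells, Serpinb9 (1.51), Basp1 (1.16), Ccl5 (0.93) and Malat1 (0.68) were higher with Cd274, and Arhgap15 (-2.57), Wdfy4 (-2.14), a cross-presentation gene of type 1 cells, and Rps28 (-1.05) were lower. Pdcd1lg2 gave 1.69 (SE 0.60, edgeR adjusted p = 0.144). In microglia-like cells 4 of 2717 genes were called (0.147%), among them Cst3 (-0.61), and 1 to 9 when 1 library was left out (1 without BPI or IgG replicate 2, 9 without BP replicate 1), 15 at 2000 UMIs and 1 with DESeq2. Pdcd1-positive CD8 cells showed 8 called genes of 1154 (0.693%), and neither Icos (0.59, SE 0.27, edgeR adjusted p = 0.616) nor Cd28 (0.16) was among them. Lower with Pdcd1 were Arl4c (-2.24), Slco3a1 (-1.62), Slc9a9 (-1.36), Gm2682 (-1.09) and Ly6c2 (-0.78), a gene of memory-type CD8 cells and of monocytes. Most of these calls were lost with DESeq2, and the number of calls also moved with single libraries, as given in the closing section.

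Other genes of the pathway were read from 4 lists. Of 13 genes of the T cell programme linked to PD-1, 3 were higher and 0 lower in BP than IgG T-like cells (median log2 difference 0.95, against 0.03 over all genes). In BPI 1 was higher (median 1.11), in UT 2 were higher and 1 lower (median 1.45, against 0.01), and in CD40 0 were called (median 1.10). Over all genes the shares called were 0.748% in BP, 0.597% in BPI, 2.42% in UT and 0.108% in CD40. The list's median was also high in other classes, at 0.99 in tumour-like cells of BP, 1.12 in microglia-like and 1.05 in macrophage cells of BPI, with 0 members called there. Havcr2, the inhibitory receptor TIM-3, had no IgG UMI. Set against the same floor, it was 13.5-fold higher in BP, 9.34-fold in BPI and 7.75-fold in UT. Lag3, another inhibitory receptor, was at 304 CPM in UT, 131 and 28.2 in BP, 27.3 in BPI and 6.65 in CD40, with 1 UMI in IgG (ratio 105 in UT, counting interval 18.7 to 4137). Entpd1, the ectonucleotidase CD39, was higher in BP by 2.03 (edgeR adjusted p = 0.0311). Tcf7, a factor of memory and stem-like T cells, was at 37.1 CPM in UT, 57.3 (7 UMIs) and 270 in IgG, and its difference (-2.33, edgeR adjusted p = 0.0102) was -0.55 without IgG replicate 2 (adjusted p = 0.840). Of the 13 calls against IgG for genes of the fixed lists in T-like cells, 11 were lost without IgG replicate 2, and Ifng in BPI and Lag3 in UT were still called. Without IgG replicate 1, 3 were lost (Ifng in BP and UT, Ctla4 in UT), and without BP replicate 1, 2 were lost (Lag3 and Entpd1 in BP). These refits were read for the list genes after the data were seen.

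Of 12 genes of the interferon route to PD-L1, 1 was higher in T-like cells of BP, 2 in BPI and 2 in UT, against 0.748%, 0.597% and 2.42% of all genes. Ifng, the inducer of PD-L1, was at 285 CPM in UT, 57.3 and 85.6 in IgG, 336 and 405 in BP, 1580 in BPI and 37.2 in CD40. It exceeded IgG by 2.18 in BP (edgeR adjusted p = 0.0134), 4.50 in BPI (edgeR adjusted p = 3.86e-08) and 1.87 in UT (edgeR adjusted p = 0.0471), and BPI exceeded BP by 2.33 (SE 0.49, edgeR adjusted p = 0.00676). Irf8 was at 164 CPM in BPI and 218 in UT, with 57.3 (7 UMIs) and 4.51 (1 UMI) in IgG. Its differences of 2.81 in BPI and 3.06 in UT were called, and without IgG replicate 2 they were 1.67 (edgeR adjusted p = 0.782) and 2.00 (edgeR adjusted p = 0.295). The excess of Ifng in BPI over BP was not called without IgG replicate 1 (edgeR adjusted p = 0.0568) or 2 (edgeR adjusted p = 0.0710). In UT macrophages 1 of 11 tested genes of this list was called, against 0.341% of all genes. It was Irf1, an interferon-induced transcription factor of the Cd274 promoter (3.43, SE 0.56, edgeR adjusted p = 0.0356). Without IgG replicate 2 the Irf1 difference was 3.24 and not called. Its levels, 430 CPM in UT, 51.7 and 44.0 in IgG, 365 and 162 in BP, 275 in BPI and 46.4 in CD40, ordered the libraries into the same low trio and high quartet as Cd274. Other genes were not screened for this order, and the part of Irf1 in the Cd274 level was not tested. None of the 15 receptor-proximal phosphatases and kinases was called in any of these contrasts. Of the other CD28 and B7 family genes, 4 of 8 were tested in T-like cells and Ctla4, the inhibitory CD80 and CD86 receptor, was higher in UT (2.11, edgeR adjusted p = 0.00872). Of the UT T-like cells 33 of 276 were Foxp3+, against 3 of 97 in IgG, and Ctla4 was at 1282 CPM in Foxp3+ and 615 in conventional CD4 cells of UT. The part of this subset in the difference was not tested.

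Between T subsets, CD8 cells had 2 programme genes higher than conventional CD4 cells, Eomes (3.20) and Havcr2 (0.99), and 5 lower, against 6.05% of genes called. The lower ones included Nr4a1 (-1.50), Irf4 (-1.46), Tox (-0.96) and Nr4a3 (-0.94). Btla (-2.88) and Ctla4 (-0.97) were lower in CD8 cells. Foxp3+ cells had Ctla4 (1.5) and Prdm1 (1.32) above and Tcf7 (-3.16) and Ifng (-2.36) below conventional CD4 cells, against 4.49% of genes called. Ifng was higher in Foxp3+ cells of BPI (260 against 189 CPM). Ptpn11, the phosphatase SHP2 that PD-1 recruits, was lower in both CD8 (-0.78) and Foxp3+ cells (-0.93). In CD40, Tox (650 against 547 CPM) and Ptpn11 (44.3 against 40.5 CPM) were higher in CD8 cells, and in BPI Btla was at 3.16 against 0 CPM. Without BP replicate 1 the genes called fell from 445 to 28 in CD8 and from 330 to 48 in Foxp3+ cells. None of the 10 genes named here or in the interferon list that could be refitted was then called in CD8 cells, and in Foxp3+ cells 1 of 5 was, Ctla4.

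The genes most like each member were ranked by Pearson's r over 59 library-by-class sums among 11666 genes, as a description. The sums of a library share its depth and free RNA, and those of a class its cell type. Among the nearest to Cd274 were Samhd1 (0.877) and Pim1 (0.857), and nearest to Pdcd1lg2 was Ptpn2 (0.809), followed by Malt1 and Psd4. Cd80 lay nearest to Ebi3 (0.788), Tnip3 and Mcemp1, and Cd86 to Ctss (0.92), Spi1 and Ncf1. Pdcd1 lay nearest to A430093F15Rik (0.796), Il1rl1 and Arhgap27os3, Cd28 to Cxcr6 (0.914), Trbc2 and Sh2d1a, and Icos to Cd3g (0.95), Cxcr6 and Ifng. Among the members themselves r was 0.867 for Cd28 with Icos and 0.659 for Cd274 with Pdcd1lg2.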

How the data were processed

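Droplet libraries of whole tumours were made with the Chromium Single Cell 3′ kit, per the labels' protocols. The deposited files hold raw UMI counts per gene and barcode, made by the authors with Cell Ranger on mm10; the version is 7.0.1 per the submitters' processing notes, while the file headers name an earlier release. Strand settings are not given in the sources used here. From these counts, barcodes had to hold 1000 UMIs and 500 genes or more, with mitochondrial UMIs not above 15%, and the top Scrublet scores (0.8% per 1000 cells) were removed as doublets in each library. Clustering used scanpy 1.11.5 (2000 variable genes without the 7 members, 30 components, 15 neighbours, Leiden resolution 1, phagocytes again at 1.5). Clusters were named from marker lists, with naming thresholds set after the data were seen. Summed counts per library and class with at least 20 cells were tested with edgeR 4.0.16 (quasi-likelihood, TMM, filterByExpr) over IgG, BP, BPI and CD40, with UT added for its contrast; single libraries were assumed to vary like the replicated groups. T subsets and cells split by Cd274 or Pdcd1 were tested with library as a block. DESeq2 1.42.0 was an alternative. Counts were also simulated with a fixed dispersion of 0.1 for every gene. On these the macrophage BP against IgG test recovered 34.7% of genes changed by 2 on the log2 scale and 3.06% of those changed by 1. The T test recovered 25.5% and 0. These shares hold for that dispersion only. Shares of cells were compared after thinning to 1000 UMIs. Named genes were the 7 members, up to 5 genes per direction with the same sign in every library, an average log2 CPM from 5 upward and a call at 0.05 in the split tests, up to 4 genes per direction from each pathway list, and the 3 most correlated genes, of which 1 is not reported here. The members and lists were chosen with earlier results of these data known. Replicate numbers of IgG and BP carry no stated pairing. Over genes, the difference of replicate 1 from replicate 2 in IgG was correlated with that in BP. The correlation was -0.25 in macrophages, -0.086 in T-like, 0.045 in microglia-like and -0.709 in tumour-like cells.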

Additional observations from a re-analysis of the deposited data

How the results depend on the processing

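For the principal results, 102 alternatives kept direction and call (or size), while 17 moved a value or count, 8 ended a call, 4 gained one and 5 changed sign. These exceptions follow, with adjusted p-values from edgeR unless DESeq2 is named. The cause of each change was not tested, except that fewer libraries or cells enter those that leave some out. Macrophage Cd274 in BP against IgG (2.66, adjusted p = 0.236) passed with DESeq2 (2.60, 5.82e-04) and without a filter on low counts (2.71, 1.57e-05). Leaving out 1 library gave 2.17 to 3.00. The replicate block gave 2.54 (0.0861), and a block with crossed numbers, added after the data were seen, 2.56 (5.46e-06). T-cell Pdcd1 in BP against IgG (2.74) was 2.69 with DESeq2 (0.0640), 2.64 with the replicate block (0.192), -0.49 with UT pooled with IgG, and 1.95 to 3.67 when 1 library was left out. T-like genes called in BP against IgG numbered 69, and 14 with DESeq2, 113 with no filter, 6 with the replicate block, 110 with the crossed block, 0 with UT pooled, 9 without IgG replicate 2 and 237 without BP replicate 2. T-cell Pdcd1 in BPI against IgG was 2.64 with DESeq2 (0.455), and with 1 library left out it was 1.92 to 3.64, macrophage Cd274 3.35 to 3.71 in BPI and 2.95 to 3.35 in UT. Macrophage Cd274 in CD40 against IgG, at -0.01, was 0.02 without a filter, 0.01 at 2000 UMIs and up to 0.17 when 1 library was left out. T-cell Pdcd1 in BPI against BP was -0.21 to 0.18.

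Of 4 members differing between CD8 and conventional CD4 cells, 2 passed with DESeq2, 2 without a filter and 0 to 3 when 1 library was left out. Of 3 between Foxp3+ and conventional CD4 cells, 0 passed with DESeq2, 1 without phagocyte-marker cells and 0 to 3 when 1 library was left out. Genes called with Pdcd1 in CD8 cells numbered 8, and 1 with DESeq2, 55 at 2000 UMIs and 1 to 11 when 1 library was left out; the other ligand genes called with Cd274 went from 0 to 1 at 2000 UMIs. The share difference for Cd274 in macrophages was 38.5 points unthinned, and for Pdcd1 in T-like cells 23.7 unthinned and 13.5 at 2000 UMIs. Small differences changed sign as follows, with ranges over libraries left out. Cd28 in T-like BP cells ran from -0.51 to 0.40. Between CD8 and conventional CD4 cells Cd274 ran from -0.43 to 0.09 (0.04 at 2000 UMIs), Cd80 from -0.22 to 0.99 and Pdcd1 from -0.20 to 0.04. In Foxp3+ cells Pdcd1lg2 ran from -0.19 to 0.88, with -0.05 without CD40, and Cd28 from -0.48 to 0.04. Cd86 with Cd274 in microglia ran from -0.27 to 0.06 (0.04 at 2000 UMIs), and Cd28 with Pdcd1 was -0.13 without a filter. Few IgG cells limit depth: the 97 T-like cells held 343940 UMIs.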
